A study of Mus musculus with 2 samples.

Results

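Among CD45-positive cells sorted from mouse melanomas, some droplets held RNA of a macrophage and of a T cell under 1 barcode, and these are called mixed droplets here. They were chosen by measured counts of UMIs (unique molecular identifiers, 1 per captured RNA molecule): at least 10 for C1qa, C1qb and C1qc together, at least 3 for Cd3e, Cd3d and Cd3g together, and under 10 for the melanocyte genes Pmel, Mlana and Dct together. No doublet removal was applied. Of 6354 filtered control barcodes 326 were mixed, or 5.13% (4.60 to 5.70), and of 7500 filtered barcodes after OX40 agonist treatment 332 were mixed, or 4.43% (3.97 to 4.92). These and all later intervals are exact 95% intervals for counting error only. For sums of UMIs they treat the molecules as drawn independently, which makes them too narrow where few droplets hold many UMIs of a gene.

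The tumours were B16-F10, a melanoma line of C57BL/6 origin, grown under the skin of female wild-type C57BL/6 mice that were 10 weeks old at implantation. The study compared leukocytes of control mice with those of mice given an agonist of OX40, a stimulatory receptor on activated T cells that Tnfrsf4 encodes. The dose and times of treatment, the agent given to the controls, the number of animals pooled and any gate for single cells in the sort are not given in the sources used here. There was 1 library per group, so no replicate spread and no test exist for any value below.

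As background, C1q is the first component of the complement cascade and is made by tissue macrophages, and CD3 is the signalling part of the T cell receptor complex. A droplet can hold RNA of both when it encloses a pair of cells, a cell with an attached or engulfed fragment, or a cell with free RNA from the suspension. In tumours, macrophages take up dying cells and present peptides to T cells on MHC class II molecules, and regulatory T cells, marked by the transcription factor Foxp3, carry much CTLA-4 on their surface.

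The deposited libraries held 114026695 and 118059108 UMIs over 7187 and 8569 barcodes, control first, as in all later pairs of values unless another order is named. They shared 18 barcodes. Of those, 1 was a mixed droplet in either library and 0 in both. The genes that define the choice lie on chromosome 9 for Cd3g (44969572 to 44980431), Cd3d (44981786 to 44987339) and Cd3e (44998740 to 45009627) and on chromosome 4 for C1qb (136880129 to 136886187), C1qc (136889804 to 136893065) and C1qa (136895917 to 136898803), in assembly GRCm38.

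Mixed droplets made up 13.4% and 14.2% of all droplets with Cd3 RNA (n = 2426 and 2334) and 20.7% and 17.1% of all droplets with C1q RNA (n = 1575 and 1947). As a share of filtered barcodes, the OX40 agonist library had 0.863 times the control value (0.738 to 1.01), and the interval includes 1. Of droplets with Cd3 RNA the ratio was 1.06 (0.906 to 1.24), and of droplets with C1q RNA it was 0.824 (0.705 to 0.963). The interval lay apart from 1 with droplets with C1q RNA as the denominator and included 1 with the others.

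Most mixed droplets lay far inside both limits. Among control droplets with C1q RNA, 976 had 0 Cd3 UMIs, 239 had 1 and 34 had 2, just outside the limit, while 9 had 3 or 4, just inside it, and 147 had 40 or more. In the OX40 agonist library the same steps held 1429, 173, 13, 10 and 88 droplets. The Cd3 count thus fell into a group near 0 and a group of high counts, with few droplets in between. On the other axis, droplets with Cd3 RNA held 5 to 9 C1q UMIs in 36 and 46 cases, 10 to 19 in 33 and 34, and 200 or more in 126 and 82. The C1q counts above the limit were spread over the whole range, and those nearest the limit came from droplets of median depth 14494 and 11219 UMIs, below the other mixed droplets.

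**Figure D1:**
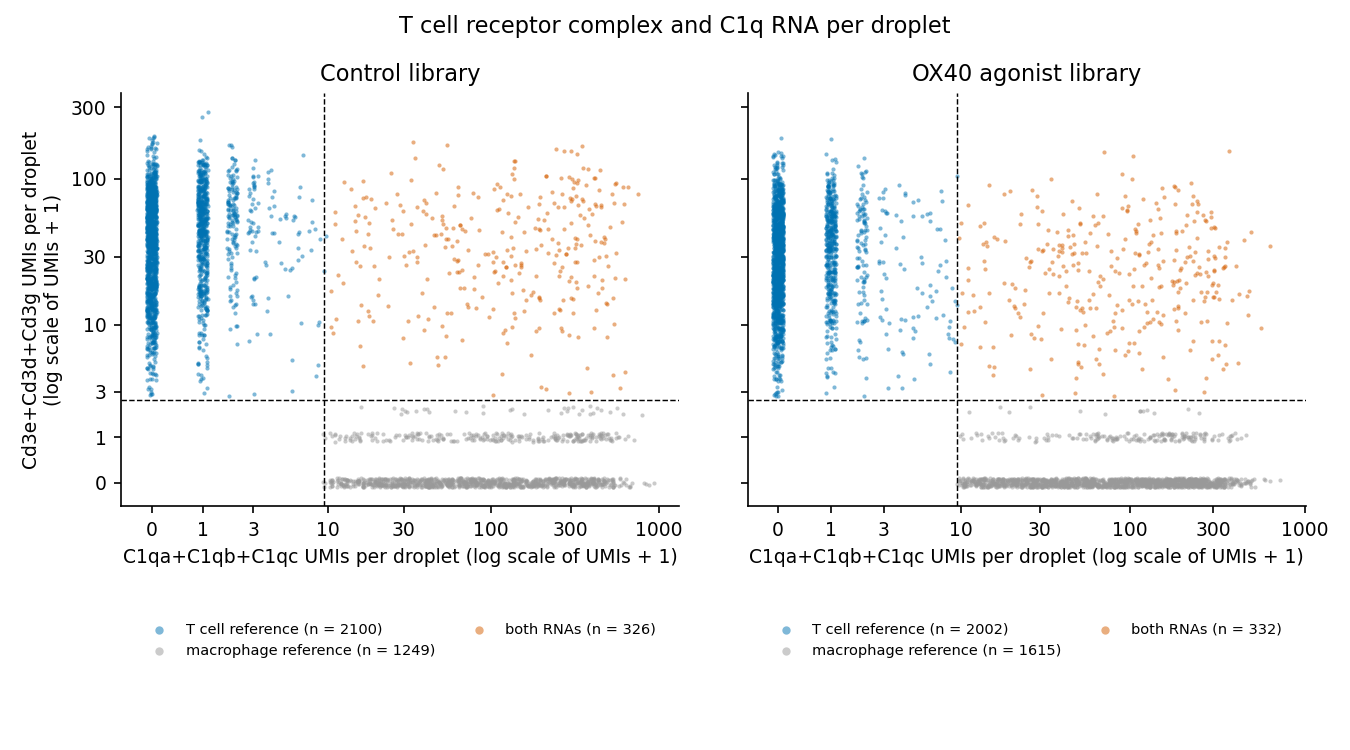
Each point is 1 droplet, with summed C1q UMIs on the horizontal axis and summed Cd3 UMIs on the vertical axis (both log scales of UMIs + 1, with a small random offset), for the control library on the left and the OX40 agonist library on the right. Dashed lines are the limits of choice at 10 and 3 UMIs. The 326 and 332 mixed droplets (orange) spread over the upper right. The limits by themselves set them apart from the macrophage reference, which lies near 0 Cd3 UMIs.

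A pair of reference sets from the same libraries served for comparison. The T cell reference had at least 3 Cd3 and under 10 C1q UMIs (2100 and 2002 droplets), and the macrophage reference at least 10 C1q and under 3 Cd3 UMIs (1249 and 1615 droplets), both with the same limit on melanocyte genes. The label held on genes outside the rule. Of the T identity list of 15 genes that all T cells use (such as Cd2, Lck and Thy1), control mixed droplets held a median of 63 UMIs, beside 73 in the T cell reference and 0 in the macrophage reference. Of the macrophage identity list of 14 genes (such as Csf1r and Adgre1), they held 113, beside 0 and 92. In the OX40 agonist library the medians were 43, 50 and 0 for the T list, and 105, 0 and 87 for the macrophage list. The mixed droplets thus carried both programmes, each at about the amount that a droplet with 1 of them had.

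The RNA content of a mixed droplet was close to that of a T cell droplet and a macrophage droplet added together. Control mixed droplets held a median of 26763.5 UMIs (25432 to 28792), against 11253.5 in the T cell reference and 13905 in the macrophage reference. The reference medians sum to 25158.5, and the mixed droplets had 1.06 times that. After OX40 agonist the medians were 21210 (19451 to 22428), 8107.5 and 12174, and the ratio to their sum was 1.05. The ranges still overlapped: control mixed droplets ran from 4488 to 75918 UMIs, and single T cell droplets reached 72375. Of the mixed droplets 93.6% and 94.9% lay above the T cell median, and 87.1% and 81.9% above the macrophage median. The number of genes detected was 4898 and 4276, against 2956 and 2431.5 in T cell droplets and 3093 and 2929 in macrophage droplets. Mitochondrial RNA, a sign of damaged cells, made up 3.03% and 3.15% of UMIs, near the reference medians.

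The sum also held within each kind of T cell. A droplet was put in the CD8 class with at least 2 UMIs of Cd8a and Cd8b1 together, in the Foxp3 class with at least 1 Foxp3 UMI, in the Foxp3 plus CD8 class with both, in the CD4 class with Cd4 and neither of these, and was otherwise unassigned. CD8-class T cell droplets were deeper than Foxp3-class ones, at 12911.5 against 5989 UMIs in the control library. Mixed droplets kept that order, at 29098 against 18754.5. Relative to the sum of their own references, CD8-class mixed droplets had 1.09 and 1.01, Foxp3-class 0.943 and 1.05, and CD4-class 1.03 and 1.10. The Foxp3 plus CD8 class had 1.10 and 1.17. The largest ratio was 1.28 for the 24 unassigned control droplets, and that class had 1.06 in the other library.

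**Figure D2:**
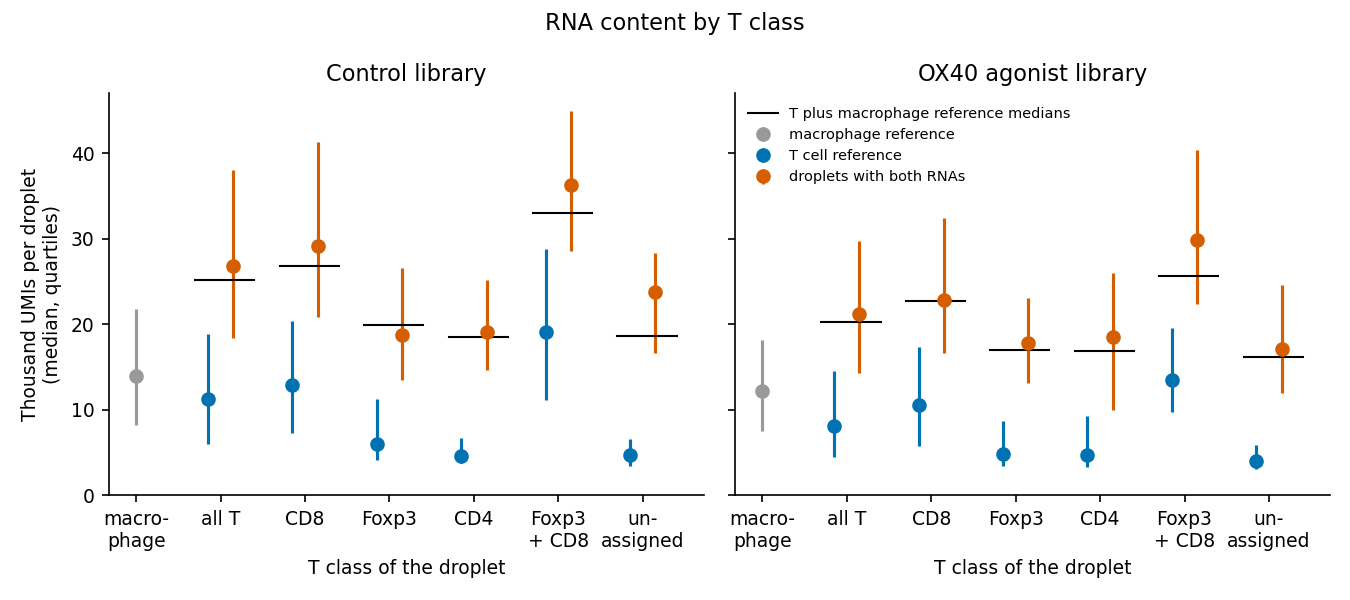
Points give median UMIs per droplet (axis in units of 1000 UMIs), with bars from the lower to the upper quartile, for the macrophage reference (grey), the T cell reference (blue) and mixed droplets (orange), by T class. Black lines mark the sum of the T cell and macrophage medians; over all T classes the mixed median was 1.06 and 1.05 times that sum.

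The T cells in mixed droplets were mostly CD8 T cells, but with a larger part of Foxp3-positive cells than the T cell reference. In the control library 213 of 326 mixed droplets were CD8 class (65.3%), 46 Foxp3 class (14.1%), 24 Foxp3 plus CD8 (7.36%), 19 CD4 class (5.83%) and 24 unassigned. In the T cell reference the shares were 79.1%, 9.05%, 2.19% and 2.19% for the same classes. After OX40 agonist, 171 of 332 were CD8 class (51.5%), 82 Foxp3 class (24.7%), 24 Foxp3 plus CD8 (7.23%) and 22 CD4 class (6.63%), against 66.7%, 16.1%, 1.90% and 5.19% in the reference. Relative to the reference the CD8 class was lower in both libraries, at 0.826 times (0.712 to 0.953) and 0.772 times (0.654 to 0.906).

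Any Foxp3 UMI was found in 21.5% (17.1 to 26.3) of control mixed droplets and 11.2% (9.92 to 12.7) of T cell droplets, a ratio of 1.91 (1.44 to 2.50). The OX40 agonist library gave 31.9% (26.9 to 37.2) and 18.0% (16.4 to 19.8), a ratio of 1.77 (1.41 to 2.20). Macrophage droplets with 0 Cd3 UMIs, which should lack Foxp3, had it in 2 of 976 (0.205%) and 6 of 1429 (0.420%), at median depths of 13227.5 and 11892 UMIs. Macrophage droplets with 1 or 2 Cd3 UMIs had it in 3 of 273 (1.10%) and 2 of 186 (1.08%), at median depths of 16601 and 14115 UMIs. Both sets are limited by their Cd3 count, and the part of free RNA in the shares of mixed droplets was not tested. Read the other way, mixed droplets were 11.4% and 11.3% of all CD8-class droplets, 19.5% and 20.2% of all Foxp3-class droplets, 29.2% and 17.5% of all CD4-class droplets and 34.3% and 38.7% of all Foxp3 plus CD8 droplets.

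**Figure D3:**
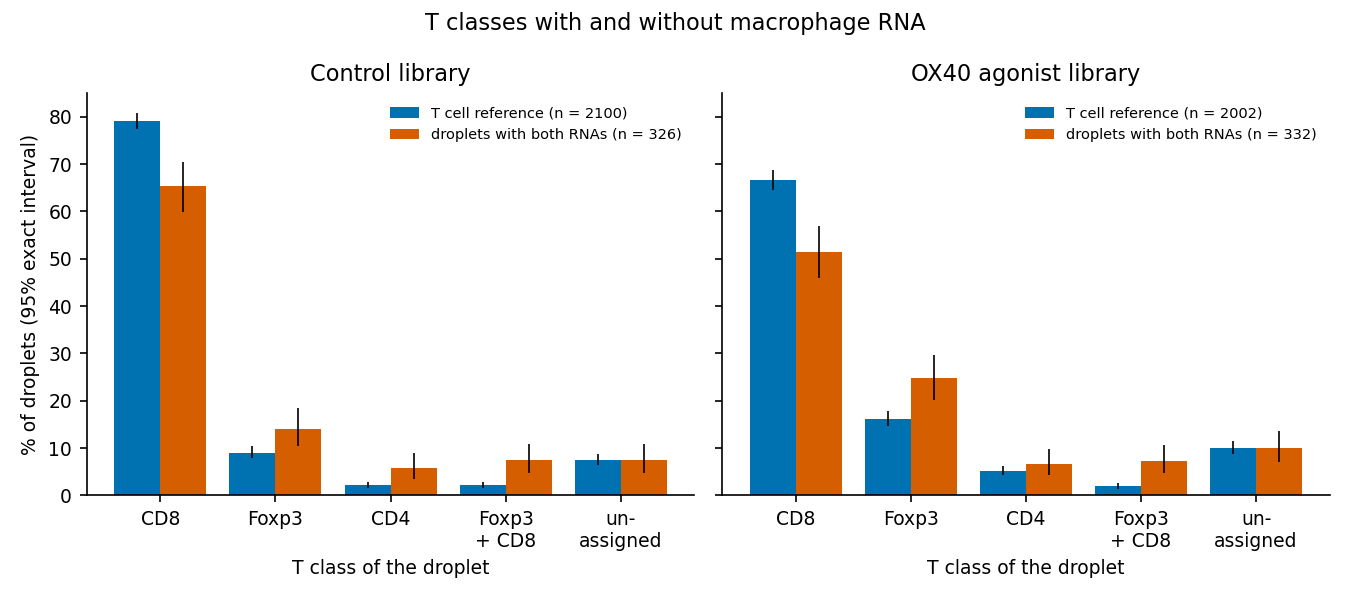
Bars give the percentage of droplets in each T class, with exact 95% intervals, for the T cell reference (blue) and mixed droplets (orange) in each library. The CD8 bars are lower in mixed droplets (65.3% and 51.5%) than in the reference (79.1% and 66.7%), and the Foxp3 bars are higher (14.1% and 24.7% against 9.05% and 16.1%).

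Depth bears on these shares. With 20 or more Cd3 UMIs, the Foxp3-positive share was 20.7% against 8.89% in the control library, a ratio of 2.33 (1.65 to 3.23), and 25.9% against 12.3% after OX40 agonist, a ratio of 2.11 (1.50 to 2.91). With 10 to 19 Cd3 UMIs the ratios were 1.36 (0.738 to 2.37) and 1.23 (0.832 to 1.77), and with 3 to 9 they were 0.931 (0.274 to 2.54) and 1.49 (0.834 to 2.56). Those intervals include 1, so the excess was seen in droplets rich in Cd3 and was not detectable in the others. When every droplet was thinned to 1000 UMIs, the ratio turned below 1, at 0.695 (2.45% against 3.53%) and 0.409 (2.41% against 5.89%). Thinning a droplet that also holds macrophage RNA leaves fewer T cell UMIs, and the CD8 class was lower with it too, at 13.2% against 39.7% and 8.13% against 35.1%. The number of CD8-class droplets per Foxp3-class droplet sets classes side by side that are both diluted, but not equally. The CD8 class needs at least 2 UMIs and the Foxp3 class at least 1. Relative to the reference, thinning took the CD8 class from 0.826 to 0.332 times and from 0.772 to 0.232 times. The Foxp3 class went from 1.56 to 0.724 times and from 1.53 to 0.412 times. The part of this unequal loss in the numbers that follow was not tested. There were 4.63 CD8-class droplets per Foxp3-class droplet in the control mixed set and 8.75 in its reference, and 5.38 and 11.7 after thinning. In the OX40 agonist library the numbers were 2.09 and 4.14, and 3.38 and 6.01 after thinning. The odds of Foxp3 against CD8 class were 1.89 times (1.30 to 2.71) and 1.98 times (1.46 to 2.67) those in the reference, and with thinning 2.18 times (0.851 to 4.93) and 1.78 times (0.682 to 4.15), where both intervals include 1.

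Between the libraries, the T classes of mixed droplets differed. The Foxp3-class share after OX40 agonist was 1.75 times the control value (1.21 to 2.57), and the CD8-class share was 0.788 times the control value (0.641 to 0.969). The T cell reference differed the same way, from 9.05% to 16.1% for the Foxp3 class and from 79.1% to 66.7% for CD8.

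Genes were next counted per 100 Cd3 UMIs, a scale that depends less on how much macrophage RNA a droplet also holds. Macrophage RNA can still add to a ratio where macrophages express the gene, and its part was not tested. The scale was applied to genes whose level in the macrophage reference was at most 10% of that in the T cell reference. Over all such genes that were abundant enough, the median ratio of mixed droplets to the T cell reference was 1.04 in the control library (n = 81 genes) and 1.16 after OX40 agonist (n = 77). Of these genes 42% and 57.1% had intervals above 1, and 32.1% and 24.7% had intervals below 1.

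Ctla4 (chromosome 1, 60887000 to 60915832), an inhibitory receptor most abundant on regulatory T cells, was higher in mixed droplets. Summed over droplets it gave 16.0 UMIs per 100 Cd3 UMIs in control mixed droplets and 12.1 in the T cell reference, a ratio of 1.32 (1.27 to 1.38). In the OX40 agonist library it gave 20.2 and 14.7, a ratio of 1.37 (1.31 to 1.44). Within the CD8 class the ratios were 1.04 (0.977 to 1.11) and 1.06 (0.973 to 1.15), and within the Foxp3 class 0.956 (0.878 to 1.04) and 1.06 (0.980 to 1.15), all with intervals that include 1. The Ctla4 difference was thus seen over all T cells and not inside either class. By droplet the sets were about level: 89.0% and 84.3% of mixed droplets had a Ctla4 UMI, against 86.6% and 84.9% of T cell droplets.

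Tnfrsf4 (chromosome 4, 156013843 to 156016612), which encodes OX40, did not behave alike in the libraries. Control mixed droplets had 15.4 UMIs per 100 Cd3 UMIs against 15.2 in the T cell reference, a ratio of 1.01 (0.967 to 1.06). In the OX40 agonist library they had 23.9 against 18.5, a ratio of 1.29 (1.23 to 1.35). Within the Foxp3 class the ratios were 0.701 (0.637 to 0.769) and 0.922 (0.854 to 0.994), and within the CD8 class 0.886 (0.833 to 0.942) and 1.15 (1.07 to 1.23). The medians over all T cell genes also differed, at 1.04 and 1.14 within the CD8 class and 1.04 and 1.16 over all classes. Tnfrsf18, which encodes the related receptor GITR, showed the same split, with 0.994 and 1.25 over all classes and 0.728 and 1.05 within the Foxp3 class. The difference between the libraries was not tested.

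Other genes of regulatory and activated T cells were higher in mixed droplets of both libraries. Foxp3 itself (chromosome X, 7573644 to 7595245) had ratios of 1.80 (1.51 to 2.13) and 1.88 (1.60 to 2.19) per Cd3 UMI, and Izumo1r, a folate receptor family member of regulatory T cells, 2.34 and 2.11. Ikzf2, the transcription factor Helios, had 1.48 and 1.64, and Icos, a costimulatory receptor, 1.32 and 1.41. Ikzf2 differed from Ctla4 in that it was also higher within the CD8 class, at 1.35 (1.24 to 1.47) and 1.52 (1.38 to 1.68). Of the 11 genes on the activated and regulatory list, 6 and 9 had intervals above 1 and 0 below, beside the 42% and 57.1% of all T cell genes above 1. The T identity list had 6 and 10 of 15 above 1. Tnfrsf9, the activation receptor 4-1BB, was at 1.02 and 0.957 with intervals that include 1. Cd4 was at 2.69 and 2.54 on a small base of 121 and 172 UMIs.

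Cd8a (chromosome 6, 71373427 to 71379173) and Cd8b1, the chains of the CD8 coreceptor, were lower, at 0.861 and 0.900 for Cd8a and 0.876 and 0.862 for Cd8b1. Within the CD8 class Cd8a was at 0.958 and 1.01. The T identity list had medians of 1.06 and 1.16, close to the medians of 1.04 and 1.16 over all T cell genes.

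The killing machinery was lower in mixed droplets. Of 12 cytotoxic genes specific to the T cell side, 9 in each library had intervals below 1 and 1 above, beside the 32.1% and 24.7% of all T cell genes below 1. Gzmb, the main granzyme of killer T cells, gave 46.0 UMIs per 100 Cd3 UMIs in control mixed droplets against 57.3 in the T cell reference (ratio 0.802, 0.782 to 0.823), and 33.2 against 49.8 after OX40 agonist (0.667, 0.644 to 0.692). Prf1, which encodes the pore-forming perforin, was at 0.766 and 0.535, and Ifng, which encodes interferon-gamma, at 0.742 and 0.749. The granzymes Gzmc and Gzmd had the lowest of these values, at 0.583 and 0.354 for Gzmc and 0.561 and 0.245 for Gzmd. Nkg7, a granule protein, was nearly level at 0.940 and 0.916, and the chemokine Ccl5 was at 1.15 and 1.02.

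These lower values were present inside the CD8 class as well. There Gzmb was at 0.861 (0.838 to 0.885) and 0.642 (0.614 to 0.670), and Prf1 at 0.835 (0.798 to 0.872) and 0.543 (0.501 to 0.587). Counted by droplet, at least 10 Gzmb UMIs were found in 48.4% of CD8-class mixed droplets and 56.5% of CD8-class T cell droplets of the control library, and in 31.6% and 45.1% after OX40 agonist. A Prf1 UMI was found in 70.9% against 80.7%, and in 62.0% against 70.2%. Gzmc was in 43.2% against 46.3%, and in 25.1% against 33.5%. At least 10 Gzmc UMIs were in 23.5% against 23.2%, and in 7.60% against 15.3%. In the control library the intervals of both Gzmc shares overlap, and the upper quartiles were 6 and 7 UMIs per droplet. The summed Gzmc counts leaned on few droplets, since 1 droplet gave 9.69% of all control and 36.2% of all OX40 agonist Gzmc UMIs in the mixed set. Without the droplet richest in Gzmc in each set the ratios were 0.546 and 0.248.

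**Figure D4:**
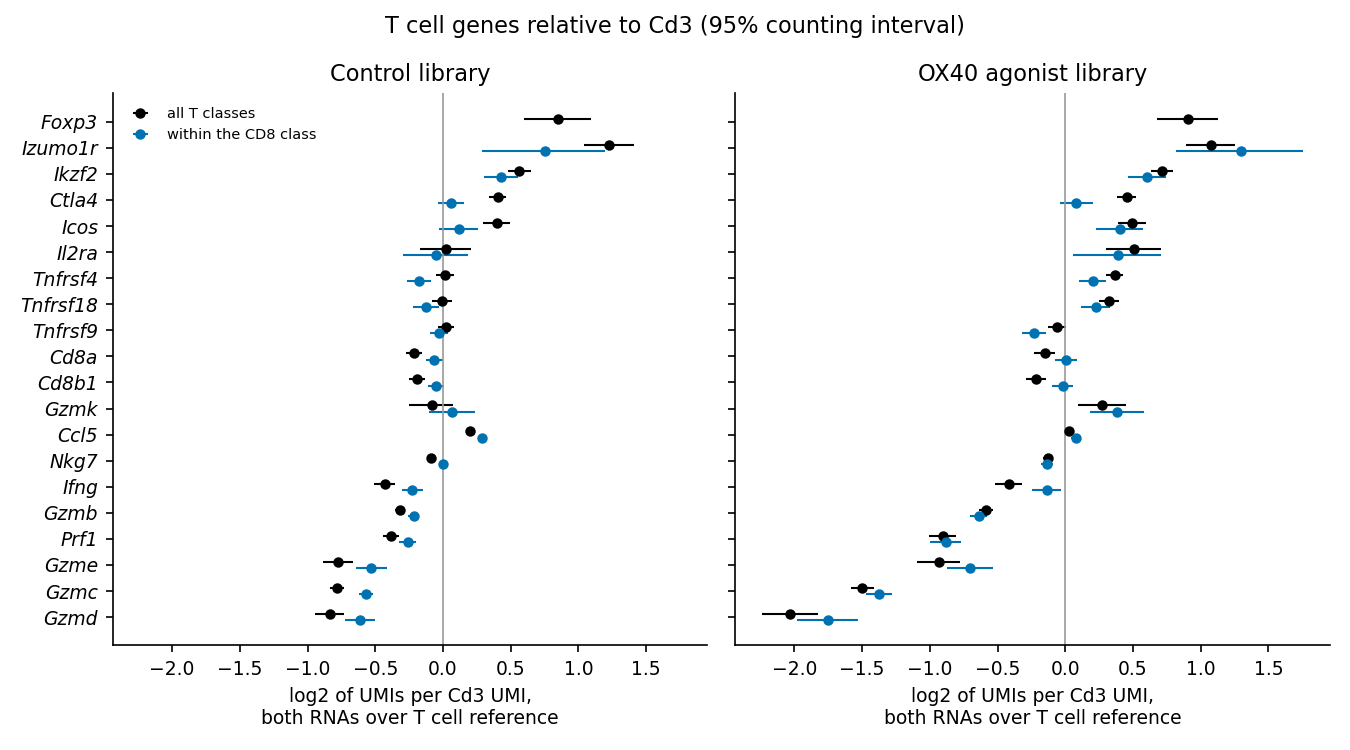
Points give the log2 ratio of a gene's UMIs per Cd3 UMI in mixed droplets to that in the T cell reference, with 95% counting intervals, over all T classes (black) and within the CD8 class (blue); Foxp3 has no CD8-class value because the class excludes it. Over all T classes, Foxp3, Izumo1r, Ikzf2, Ctla4 and Icos lie to the right of 0 in both libraries. Gzmb, Gzmc, Gzmd, Prf1 and Ifng lie to the left. Tnfrsf9 lies near 0 in both libraries, and Tnfrsf4 and Tnfrsf18 lie near 0 in the control library. Ctla4 lies near 0 within the CD8 class.

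Macrophage genes were counted per 100 C1q UMIs in the same way. The median C1q count was 136 in control mixed droplets and 93 in the macrophage reference, and 94 and 89 after OX40 agonist. A rise in C1q beyond that of other macrophage genes lowers every ratio on this scale. Its part in the ratios and in their difference between the libraries was not tested. Over all genes specific to the macrophage side the median ratio of mixed droplets to the macrophage reference was 0.942 in the control library (n = 166 genes) and 1.02 after OX40 agonist (n = 128). Intervals lay above 1 for 16.3% and 32.8% of these genes and below 1 for 49.4% and 20.3%. The macrophage identity list had medians of 0.992 and 1.06.

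In the control library the macrophages of mixed droplets leaned to a tissue-like profile, a list of 12 genes known from resident macrophages. Of these, 7 had intervals above 1 and 0 below, beside 16.3% above 1 over all macrophage-side genes, with a median ratio of 1.25. Gas6, a bridging protein for the uptake of dying cells, was at 1.51 (1.32 to 1.71), Stab1, a scavenger receptor, at 1.37 (1.28 to 1.47) and Folr2, a folate receptor, at 1.31 (1.17 to 1.46). The chemokine Ccl8 gave 18.0 UMIs per 100 C1q UMIs against 13.8, a ratio of 1.30 (1.27 to 1.33). After OX40 agonist the list was close to level, with a median of 1.08, 5 genes above 1 and 2 below, near the 32.8% and 20.3% of all macrophage-side genes, while the macrophage identity list had 8 of 14 above 1 and 1 below. There Gas6 was at 1.05 (0.956 to 1.15), Folr2 at 0.991 (0.900 to 1.09) and Ccl8 at 0.954 (0.920 to 0.990), while Selenop, a selenium transport protein, was at 1.27 and F13a1, a clotting factor subunit, at 1.33. Stab1, Selenop and F13a1 were the tissue-like genes named here whose intervals lay above 1 in both libraries.

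Counted by droplet, at least 2 UMIs of Fcrls, Folr2 and Gas6 together were found in 38.0% of control mixed droplets and 28.6% of macrophage droplets, and in 52.1% and 45.2% after OX40 agonist. In T cell droplets the share was 0.763% and 0.849%. The greater depth of mixed droplets raises such shares. At 1000 UMIs per droplet they were 1.53% against 1.77% and 6.63% against 7.27%. Thinning leaves a mixed droplet fewer macrophage UMIs than a macrophage droplet, so these shares do not compare equal amounts of macrophage RNA.

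Genes of other macrophage states were lower per C1q UMI in the control mixed droplets. MHC class II genes, which present peptides to CD4 T cells, had intervals below 1 in 5 of 5 cases, beside 49.4% of all macrophage-side genes. The macrophage identity list had 7 of 14 below 1 and 4 above. Cd74 gave 78.3 UMIs per 100 C1q UMIs against 115 in the macrophage reference (0.681, 0.674 to 0.688), and H2-Aa was at 0.649. In the OX40 agonist library Cd74 was at 0.958 (0.945 to 0.970) and H2-Aa at 0.980 (0.958 to 1.00), but there the T cell reference also held more than 10% of the level of these genes, so the scale is less specific. Arg1, which encodes an arginine-degrading enzyme of suppressive macrophages, was at 0.785 (0.753 to 0.819) and 1.04 (0.990 to 1.09), with the same limit on the second value. Mmp12, an elastase, was lower in both libraries, at 0.526 (0.500 to 0.554) and 0.641 (0.608 to 0.675), and 1 droplet gave 15.3% and 16.4% of its UMIs in the mixed set. The size of the Mmp12 difference depended on the choice of droplets: without scored doublets the ratios were 0.369 and 0.294, and with melanocyte UMIs under 3 they were 0.724 and 0.756. By droplet, at least 2 Arg1 UMIs were found in 36.2% of control mixed and 35.7% of macrophage droplets, and in 31.3% and 28.3% after OX40 agonist. At least 2 Mmp12 UMIs were in 23.3% (18.8 to 28.3) against 28.6% (26.1 to 31.2), and in 25.0% (20.4 to 30.0) against 30.8% (28.6 to 33.1). The Mmp12 intervals overlap in each library. The greater depth of mixed droplets raises such shares.

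Which macrophages shared a droplet with which T cells was compared over C1q within the mixed set. Against CD8-class mixed droplets, Foxp3-class ones of the control library had less of the tissue-like list, with a median ratio of 0.708 beside 0.984 over all macrophage-side genes. Of 11 of its genes 8 had intervals below 1 and 1 above, beside 22.9% and 17.5% of all macrophage-side genes. After OX40 agonist the list's median of 0.845 was near the 0.882 of all such genes, and 6 of 12 had intervals below 1 and 0 above, beside 46.1% and 6.25%. The control library gave 0.555 (0.456 to 0.669) for the mannose receptor Mrc1 and 0.507 (0.464 to 0.553) for the chemokine Pf4, whereas the OX40 agonist library gave 0.867 (0.779 to 0.963) and 1.06 (1.01 to 1.12). Folr2 ran the other way in the control library, at 1.59 (1.22 to 2.04). Cd74 was higher beside Foxp3-class T cells, at 1.38 (1.35 to 1.42) in the control library. The OX40 agonist value was 1.23 (1.20 to 1.27), but there Cd74 is not specific to the macrophage side, and the part of T cell Cd74 in it was not tested. By droplet, at least 2 UMIs of Fcrls, Folr2 and Gas6 were found in 34.8% (21.4 to 50.2) of Foxp3-class and 37.1% (30.6 to 44.0) of CD8-class mixed droplets of the control library, and in 57.3% (45.9 to 68.2) and 48.5% (40.8 to 56.3) after OX40 agonist. The intervals overlap in each library, so no pairing of a T class with these macrophages was detectable by droplet.

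To see whether the mixed droplets held anything that neither reference held, their summed RNA was compared with a weighted sum of the references. The T cell weight was the median over the T identity list of the level in mixed droplets over that in the T cell reference, 0.462 and 0.439, and the macrophage weight was 0.661 and 0.681 from the macrophage identity list. The weights add to 1.12 in both libraries, and the weighted sum was then scaled down to the same total as the mixed droplets. Levels are in CPM (a gene's UMIs scaled to the UMIs of the set), and log2 ratios were taken with 10 CPM added to both sides.

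Nearly every abundant gene lay within 2-fold of the sum of the references. In the control library 0 of 2735 abundant genes (0%) were at least 2-fold above or below it, and in the OX40 agonist library 3 of 2741 (0.109%). Within 0.5 on the log2 scale lay 99.2% and 99.6% of genes. The 3 genes were the granzymes Gzmc (-1.49) and Gzmf (-1.12) and the chemokine Ccl24 (1.40), and 1 droplet gave 61.8% of the Ccl24 UMIs. Of 2631 genes counted as abundant in both libraries, 0 were past 2-fold the same way in both. To be counted, a gene also had to be found in a minimum share of mixed droplets. Genes scarce in mixed droplets could thus drop out, so the counts on the lower side can be too small. The lowest value on the cytotoxic list was -1.70 in the control library and -1.74 after OX40 agonist, and neither was counted. Among the mixed droplets left after removal of scored doublets, described at the end, 15 and 10 genes were past 2-fold. Only 81 and 77 of the abundant genes were specific to the T cell side, and 166 and 128 to the macrophage side. A gene at like levels in both references has nearly the same sum whatever the weights, so its closeness says little about the mixture. The shares near the sum were not taken over genes of 1 side alone.

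Below that fold the lists kept the directions seen per Cd3 and per C1q UMI. The cytotoxic list had log2 medians of -0.30 and -0.86, with 11 and 12 of 13 genes lower. The activated and regulatory list had 0.18 and 0.30, with 11 and 9 of 11 higher. The lists that set the weights were above 0 too, since the sum was scaled down. The T identity list had 0.12 and 0.13, with 13 and 11 of 15 higher. The macrophage identity list had 0.10 and 0.11, with 12 and 13 of 14 higher. Medians near these on lists of 1 side do not stand out. Of all abundant genes, 1046 of 2735 and 1087 of 2741 were lower, and 1689 and 1654 were higher. Ctla4 was 0.45 and 0.37 higher on the log2 scale, but 0.18 and 0.11 when the T cell reference was weighted to the T classes of the mixed droplets. The tissue-like list was at 0.26 and 0.10, the MHC class II list at -0.45 and -0.14, and the list of Arg1 and hypoxia genes at -0.32 and -0.17, beside a median over all genes of 0.03 in both. Cycling genes, which mark dividing cells, were at 0.01 and 0.10, and adhesion molecules such as Itgal and Icam1 at 0.00 in both libraries. Stress genes were at -0.15 and -0.09, with Hspa1b, a heat shock protein, at -0.84 and -0.11.

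Among all abundant genes, those farthest from the sum in the same direction in both libraries, singled out after their values were seen, were Gzmc (-0.69 and -1.49), Mmp12 (-0.75 and -0.59) and the matrix protein Fn1 (-0.58 and -0.49) on the lower side. On the higher side they were Ikzf2 (0.54 and 0.61), the RNA-binding protein Msi2 (0.43 and 0.41), the actin-binding protein Ablim1 (0.41 and 0.47) and the transcription factor Maf (0.44 and 0.39).

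**Figure D5:**
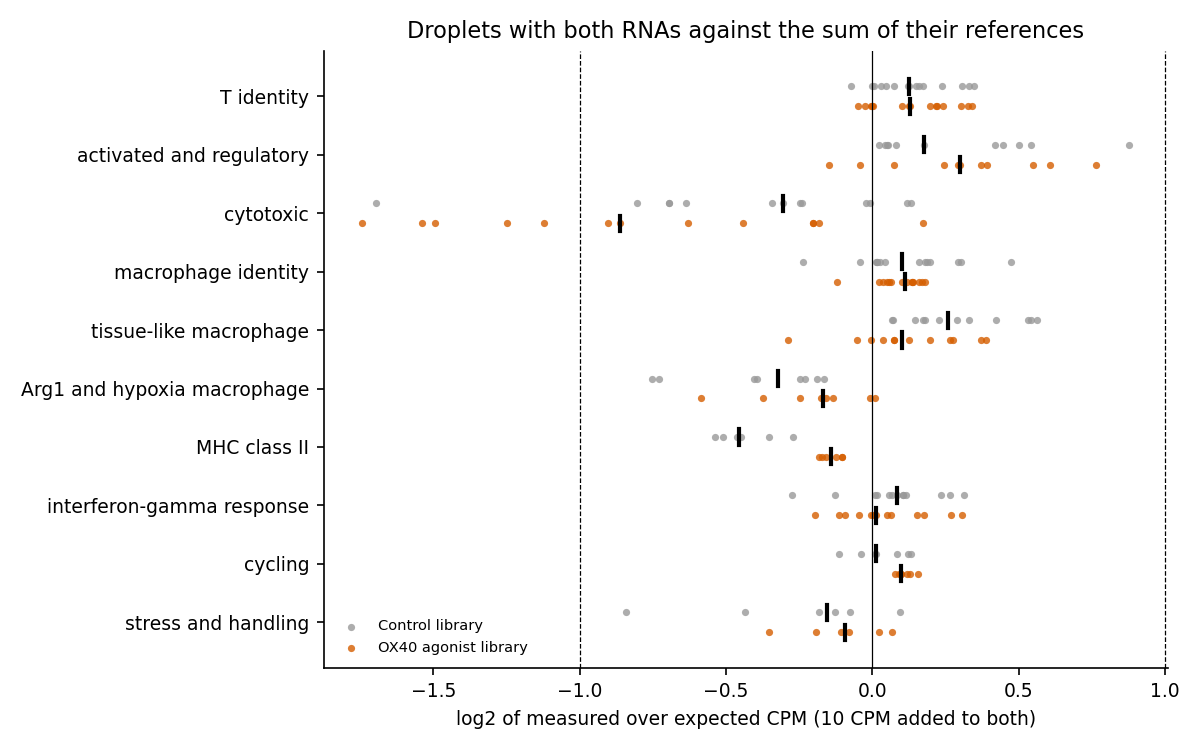
Each point is 1 gene of a list and gives the log2 ratio of its CPM in mixed droplets to the weighted sum of the T cell and macrophage references (10 CPM added to both), in the control (grey) and OX40 agonist (orange) libraries; black ticks are list medians and dashed lines mark 2-fold. Most genes lie close to 0, and the cytotoxic list reaches farthest to the left, with medians of -0.30 and -0.86; some of its genes past the dashed line were too rare to be counted as past 2-fold.

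Between the libraries, 4 of 2807 abundant genes (0.143%) were at least 2-fold higher in the mixed droplets after OX40 agonist with intervals apart, and 11 (0.392%) at least 2-fold lower. The higher ones were the macrophage genes Fcrls (24.6 to 119 CPM), Apoe, a lipid carrier (1070 to 2232 CPM), and Ccl24, together with Hspa1b (124 to 263 CPM). For Ccl24, 1 droplet gave 34.9% of the control and 61.8% of the OX40 agonist UMIs. In the macrophage reference it went from 26.7 to 31.4 CPM. The lower ones included the macrophage chemokines Ccl8 (1152 to 463 CPM) and Cxcl9 (751 to 333 CPM), the granzymes Gzmc (350 to 155 CPM), Gzmd and Gzmf, the T cell chemokine Ccl1 (157 to 34.7 CPM), the opioid precursor gene Penk (98.9 to 40.2 CPM), the enzyme gene Upp1 (61.8 to 19.7 CPM) and Prf1 (252 to 113 CPM). The references differed in the same direction. In the macrophage reference Fcrls went from 38.6 to 159 CPM, Apoe from 1467 to 2934, Ccl8 from 1333 to 755 and Cxcl9 from 1154 to 604. In the T cell reference Ccl1 went from 272 to 139 CPM, Penk from 182 to 97.4, Prf1 from 757 to 556 and Gzmc from 1385 to 1154. The counts of higher and lower genes moved with the measure. With 1 CPM added 9 genes were higher, and with the mean of CPM over droplets 2 were. Without scored doublets 5 were lower.

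The interferon-gamma response list, genes that macrophages switch on when they sense that cytokine, was lower in 12 of 12 abundant members. Its log2 median was -0.84 beside -0.01 over all genes, of which 1462 of 2807 were lower and 1345 higher. Cxcl9 was at -1.15, the GTPase Iigp1 at -1.09 and Gbp4 at -1.04. In the macrophage reference the list had a median of -0.96, a difference of the same direction. The MHC class II list was at -0.42 in mixed droplets, between 0.58 in the T cell reference and -0.88 in the macrophage reference. The cytotoxic list was at -0.49 in mixed droplets, with 11 of 13 lower, and at -0.17 in the T cell reference. The tissue-like list was at 0.60, with 9 of 10 abundant members higher and Ccl8 lower, beside 0.81 in the macrophage reference. Among genes of OX40 signalling and regulation, Tnfrsf4 was at 0.41, Tnfrsf18 at 0.32, Foxp3 at 0.40 and Ctla4 at 0.12, beside 0.27, 0.21, 0.54 and 0.26 in the T cell reference. The T cell reference was thus higher after OX40 agonist for these 4 genes too.

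Markers of other cell types were rare for some types and frequent for others. At least 3 UMIs of B cell genes were found in 0% and 0.301%, of neutrophil genes in 2.45% and 1.51%, and of stromal genes in 0.920% and 0.301%. Natural killer cell genes reached 10.1% and 5.72%, against 8.29% and 5.69% of the T cell reference. Dendritic cell genes reached 22.1% and 23.2%, like the 20.8% and 21.9% of the T cell reference, and the most abundant gene of that list was Ccr7, which T cells also express. Of the mixed droplets 34.7% and 26.5% held 3 to 9 UMIs of Pmel, Mlana and Dct. That compares with 8.86% and 5.79% of T cell droplets and 25.6% and 16.2% of macrophage droplets. The greater depth of mixed droplets raises such shares. Relative to all RNA, a melanoma list of 4 genes summed to 84.2 and 87.9 CPM in mixed droplets. The T cell reference had 77.9 and 86.4 CPM, and the macrophage reference 124 and 111 CPM. All 4 genes lay below the weighted sum in both libraries. The part of tumour RNA in the results was not tested beyond the lower limit given with the alternatives.

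A doublet score from simulated pairs of barcodes treated the classes unevenly. It marked 49.1% and 63.3% of mixed droplets, 5.95% and 8.14% of T cell droplets and 0.480% and 2.11% of macrophage droplets. In the control library it marked 63.8% of CD8-class but 8.70% of Foxp3-class mixed droplets, and 75.4% and 37.8% after OX40 agonist. The Foxp3 plus CD8 class was marked in 62.5% and 91.7%. In numbers, that was 136 of 213 CD8-class and 4 of 46 Foxp3-class control mixed droplets. Among the droplets it left, the Foxp3-positive ratio to the T cell reference was 2.76 and 2.45 and the Ctla4 ratio 2.06 and 1.96. There the ratio per Cd3 UMI was 3.63 and 3.71 for Foxp3, 2.26 and 2.47 for Ikzf2, 0.418 and 0.504 for Prf1 and 0.520 and 0.194 for Gzmc.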

How the data were processed

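Single-cell 3′ libraries of live CD45-positive cells, 1 per group, were made with the 10x Genomics Chromium kit version 3, per the labels' protocols. The protocol sorts DAPI-negative cells as live, and the series' design text writes the opposite sign. The authors deposited whole-number UMI counts per gene and barcode without normalization, made with Cell Ranger on mm10, per the submitters' processing notes, version 3.1.0 per the file headers. The matrices list 31053 genes. Barcodes under 500 UMIs or 200 genes, or above 10% mitochondrial UMIs, were left out. Gene positions come from GENCODE release M21 (GRCm38).

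The choice of mixed droplets and the gene lists were made with earlier results of these data known. With 1 library per group no test was made. Shares carry Clopper-Pearson intervals, ratios of counts exact intervals conditional on both counts, medians order-statistic intervals. A gene was counted past 2-fold at an absolute log2 of 1 and, between libraries, with Poisson intervals apart, if it reached 50 CPM and 30 UMIs and was found in 5% of mixed droplets. Mitochondrial, ribosomal, predicted and receptor segment genes and the genes of the choice were left out. Named genes are members of the T identity, T lineage, activated and regulatory, cytotoxic, macrophage identity, tissue-like and Arg1 lists, the 8 farthest past 2-fold between libraries in each direction, those past 2-fold against the sum, and up to 4 per other list; others are said to be chosen after their values were seen. The values of 1 listed gene are not reported here. The doublet score followed the Scrublet definition (2 simulated doublets per barcode, 30 components, 0.8% removed per 1000 barcodes). Alternatives changed the limits on mitochondrial, total, C1q, Cd3 and melanocyte UMIs, the references, the added CPM, the class limits and the depth, and removed scored doublets; T cell references without droplets of at least 20 MHC class II UMIs and sets without their richest droplet were added after the data were seen. The comparison with the weighted sum and the calls between libraries were tested on simulated counts. Python 3.11.15, NumPy 2.4.6, SciPy 1.17.1, pandas 2.3.3, scikit-learn 1.9.0 and matplotlib 3.10.9 were used.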

Additional observations from a re-analysis of the deposited data

Results flagged for a closer look

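Of 67 macrophage and T cell genes compared per C1q or per Cd3 UMI, 5 had intervals on opposite sides of 1 in the libraries. Per C1q UMI, Csf1r, the receptor for a macrophage growth factor, was at 0.927 times the macrophage reference in control mixed droplets and at 1.13 times after OX40 agonist. The antibody receptor Fcgr1 was at 0.932 and 1.11, the endotoxin coreceptor Cd14 at 0.784 and 1.04, and the oxidase subunit Cybb at 0.888 and 1.08. Ccl8 ran the other way, at 1.3 and 0.954. The difference between the libraries was not tested, and in the control library the median of all macrophage-side genes was itself below 1, at 0.942, against 1.02 after OX40 agonist. The C1q count that sets the scale had a median of 136 in control mixed droplets against 93 in the macrophage reference, and of 94 against 89 after OX40 agonist.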

How the results depend on the processing

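With 1 library per group, values cover 2 libraries and no spread between animals. The ratio of depth to the summed references lay between 1.01 and 1.13 in the control library and between 0.995 and 1.07 after OX40 agonist over 11 settings. Of the values that answer a comparison, 164 stayed within their counting interval, 22 moved and 2 reversed, and of the named genes 343 stayed, 115 moved and 2 reversed. With melanocyte UMIs under 3 the mixed share was 3.35% and 3.25%, the Ctla4 ratio after OX40 agonist 1.44, its tissue-like median 0.943 and its Cd74 ratio 1.01, and 1 control gene was past 2-fold against the sum. With at least 5 C1q UMIs the share after OX40 agonist was 5.04%, and with at least 20 the Ctla4 ratios were 1.25 and 1.44. With at least 2 Cd3 UMIs 1 control gene was past 2-fold. Removing scored doublets gave shares of 2.77% and 1.75%, Foxp3-positive ratios of 2.76 and 2.45, Ctla4 ratios of 2.06 and 1.96, T cell weights of 0.398 and 0.344, 15 and 10 genes past 2-fold against the sum, 5 genes lower between libraries and a Ccl8 ratio of 1.20 after OX40 agonist. This score marked the CD8 and the Foxp3 plus CD8 classes most, as given with the results. Thinning to 1000 UMIs gave Foxp3-positive ratios of 0.695 and 0.409. Between libraries, 9 genes were higher with 1 CPM added and 2 with the mean of CPM over droplets. Where no value is given beside these, the cause was not tested. No paired analysis was possible because each group has 1 library and no test was made. Foxp3 has few UMIs per T cell, so its share moves with depth.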

Other observations

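Gene groups outside the report's lists stayed near the weighted sum of the references. Inhibitory receptors of T cells had log2 medians of 0.04 and -0.03 against it, with Tox, a transcription factor of chronically stimulated T cells, at 0.22 and 0.26 and Pdcd1, which encodes PD-1, at -0.10 and -0.14. Genes switched on by T cell receptor signals had medians of -0.07 and 0.01, with Egr2 at -0.33 and -0.29 and the chemokine Xcl1 at -0.28 and 0.16. Monocyte genes had medians of -0.07 and -0.20, with 6 and 7 of 8 lower and the lectin Chil3 at 0.02 and -0.49. Lipid-handling macrophage genes had -0.04 and -0.13, with 7 of 8 lower in each library and Apoe higher at 0.25 and 0.29. Genes for the uptake of dying cells had 0.13 and 0.10, with 5 and 6 of 7 higher. Of all abundant genes, 1689 of 2735 and 1654 of 2741 were higher, and 1046 and 1087 were lower.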
